A study of Mus musculus with 30 samples.

Results

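The 10 genes described here were taken as genes of the osteoclast, the multinucleated cell that resorbs bone and calcified cartilage. They were chosen by mouse symbol as *Acp5*, *Ctsk*, *Ocstamp*, *Dcstamp*, *Atp6v0d2*, *Calcr*, *Nfatc1*, *Oscar*, *Itgb3* and *Clcn7*, and each symbol matched 1 of the 55416 Ensembl gene IDs in the count table. Their reads were followed in the fracture callus of all 30 mice of the study, by genotype and days post fracture (dpf). None of them was called as different between genotypes at 3- or 6-dpf. At 10-dpf 5 of the 10 and at 14-dpf 10 of the 10 were lower in mice that lack *Apex1* in the limb mesenchyme, on days when 3.44% and 7.04% of all genes tested were called lower. The 10 genes were chosen with earlier results of these data known. The shares over all genes therefore describe the counts and are not an independent test.

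Osteoclasts form from myeloid precursors of the blood and marrow, close relatives of macrophages. The growth factor CSF1 keeps the precursors alive, and the ligand RANKL, presented by osteoblast lineage cells and hypertrophic chondrocytes, binds the receptor RANK and switches on the transcription factor NFATc1. The precursors then fuse, attach to the matrix through an integrin, pump acid onto it and digest its collagen. In a healing fracture such cells clear calcified cartilage and remodel the new bone.

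The mutant mice, P-Apex1KO, carried *Prrx1*-Cre and 2 floxed alleles of *Apex1* (Prrx1-Cre+;Apex1 C/C). The *Prrx1* promoter drives Cre in limb bud mesenchyme, so chondrocytes, osteoblasts and their progenitors lose the gene while osteoclasts and their blood-borne precursors keep it. The controls, called WT, were littermates that the labels do not tell apart, of genotype Apex1 C/+ with Prrx1-Cre+/-, or Apex1 C/+ or C/C without Cre, so a control may carry Cre and 1 floxed allele or no Cre at all. All mice were adults with a non-stabilized closed fracture of the tibia, and no unfractured bone was sequenced. At 3-dpf there were 4 WT mice (2 females, 2 males) and 4 P-Apex1KO mice (1 female, 3 males). At 6-dpf the groups held 5 WT (3 females, 2 males) and 3 P-Apex1KO mice (1 female, 2 males), and at 10-dpf 4 WT (2 females, 2 males) and 3 P-Apex1KO mice (1 female, 2 males). At 14-dpf, 4 WT mice (1 female, 3 males) were set against 3 P-Apex1KO females.

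Levels are given as CPM, read counts scaled to a common library total after TMM scaling over all 30 libraries, which held between 18334389 and 43111491 reads on genes. Differences between genotypes are log2 fold changes with standard errors (SE) from the quasi-likelihood test of edgeR, with sex as a covariate, adjusted by Benjamini-Hochberg over all genes tested, and a gene is called lower or higher at an adjusted p under 0.05. *Apex1* itself had 30, 26.4, 33.1 and 31.7 CPM in WT and 18.4, 29, 27.6 and 34.5 CPM in the libraries labelled P-Apex1KO at 3-dpf, where the fourth of these lay above every WT mouse. At 6-dpf it ranged from 15.1 to 15.8 CPM in P-Apex1KO and from 20.7 to 28.9 CPM in WT. The ranges were 14 to 16.8 against 16.9 to 27.5 CPM at 10-dpf and 14.2 to 18.6 against 19.8 to 27.2 CPM at 14-dpf. Its log2 fold change was −0.15 (SE 0.19, adjusted p = 0.927) at 3-dpf, −0.67 (SE 0.11, adjusted p = 0.0071) at 6-dpf, −0.65 (SE 0.13, adjusted p = 0.0278) at 10-dpf and −0.29 (SE 0.19, adjusted p = 0.367) at 14-dpf. Beside the fourth, the first library labelled P-Apex1KO at 3-dpf stood apart, with 13601 CPM summed over 10 skeletal muscle markers against 3958 to 5619 CPM in WT, and at 10-dpf the third WT library had the lowest level of the 10 genes in WT. Since the tissue was sequenced in bulk, fewer osteoclasts and less of a transcript in each of them cannot be told apart. The paper describes the 3-dpf samples as tibiae dissected around the fracture site and the 6-dpf samples as whole callus. The tissue taken may therefore differ between 3-dpf and later days. Because the P-Apex1KO mice at 14-dpf were all female, the fitted difference there rests on the single WT female, replicate 1, with the males informing the spread. The sample names in the labels change form between 6- and 10-dpf, so a difference in library preparation and a difference in time cannot be told apart between those days.

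Upstream sequence is shown for the 5 genes whose 250 bases before the start of the GENCODE canonical transcript overlapped no annotated exon and held at least 1 match to the motifs searched. The sequences were read from GRCm39, the build the authors aligned to, and run 5′ to 3′ on the strand of the gene up to the base before the start. Capitals mark matches, on either strand, to TGANTCA (AP-1, the FOS and JUN factor), GAGGAAG (PU.1, a myeloid factor), TCACGTG or TCATGTG (the MITF and TFE family) and TGGAAA (the NFAT family), and no match overlapped another.
Ocstamp (chr2:165242337-165242586, minus strand): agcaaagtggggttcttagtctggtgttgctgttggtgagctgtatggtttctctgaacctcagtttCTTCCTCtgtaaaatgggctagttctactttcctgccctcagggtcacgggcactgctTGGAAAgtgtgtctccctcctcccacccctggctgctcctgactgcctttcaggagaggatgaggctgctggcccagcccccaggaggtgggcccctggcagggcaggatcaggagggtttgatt
Dcstamp (chr15:39608964-39609213, plus strand): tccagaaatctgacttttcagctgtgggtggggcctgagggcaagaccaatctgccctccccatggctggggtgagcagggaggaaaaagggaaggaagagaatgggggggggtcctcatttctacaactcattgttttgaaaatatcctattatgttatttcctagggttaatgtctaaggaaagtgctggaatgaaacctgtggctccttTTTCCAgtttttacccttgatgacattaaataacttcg
Atp6v0d2 (chr4:19922615-19922864, minus strand): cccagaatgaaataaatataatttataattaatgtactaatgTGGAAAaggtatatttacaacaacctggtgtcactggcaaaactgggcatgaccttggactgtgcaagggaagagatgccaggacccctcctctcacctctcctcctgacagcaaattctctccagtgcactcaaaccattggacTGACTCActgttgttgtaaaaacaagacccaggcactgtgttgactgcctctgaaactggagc
Oscar (chr7:3619157-3619406, minus strand): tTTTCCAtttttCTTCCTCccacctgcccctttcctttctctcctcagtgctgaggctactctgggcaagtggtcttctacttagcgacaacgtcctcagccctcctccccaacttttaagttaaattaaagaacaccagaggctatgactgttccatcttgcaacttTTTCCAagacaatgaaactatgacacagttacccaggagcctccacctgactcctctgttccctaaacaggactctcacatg
Clcn7 (chr17:25352106-25352355, plus strand): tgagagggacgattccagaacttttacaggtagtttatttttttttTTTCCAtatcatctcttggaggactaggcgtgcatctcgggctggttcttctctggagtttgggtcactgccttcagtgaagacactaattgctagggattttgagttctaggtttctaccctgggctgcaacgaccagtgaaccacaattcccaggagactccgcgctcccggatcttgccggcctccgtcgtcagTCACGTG

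An NFAT match was present in the windows of 6 of the 10 genes, *Ctsk*, *Ocstamp*, *Dcstamp*, *Atp6v0d2*, *Oscar* and *Clcn7*, against 19.4% of the windows of 21627 protein-coding genes. A PU.1 match was found for 2 of 10, *Ocstamp* and *Oscar*, against 10.3% of all windows. The AP-1 match occurred in 1 of 10, *Atp6v0d2*, against 6.19% of all windows, and the MITF and TFE match in 1 of 10, *Clcn7*, against 5.95%. In *Clcn7* that match ended at the base before the start of transcription. A match describes the letters of the window and not binding.

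In WT callus at 14-dpf, where the genes were highest, the levels per kilobase of exon spanned a wide range. *Ctsk* led with 1376 ± 51.4 CPM per kb (SD, n = 4) and *Acp5* followed with 793 ± 65.6 CPM per kb. *Atp6v0d2* (116 ± 9.43 CPM per kb) and *Itgb3* (101 ± 6.95 CPM per kb) came next and differed by less than the sum of their SDs. Below them *Nfatc1* (32.5 ± 1.84), *Dcstamp* (30.3 ± 2.25), *Clcn7* (27.6 ± 2.59), *Oscar* (26 ± 2.1) and *Ocstamp* (23.7 ± 1.68 CPM per kb) formed a group in which each neighbour lay within the sum of the SDs of the next. *Calcr* was the least abundant, at 1.33 ± 0.192 CPM per kb.

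**Figure D1:**
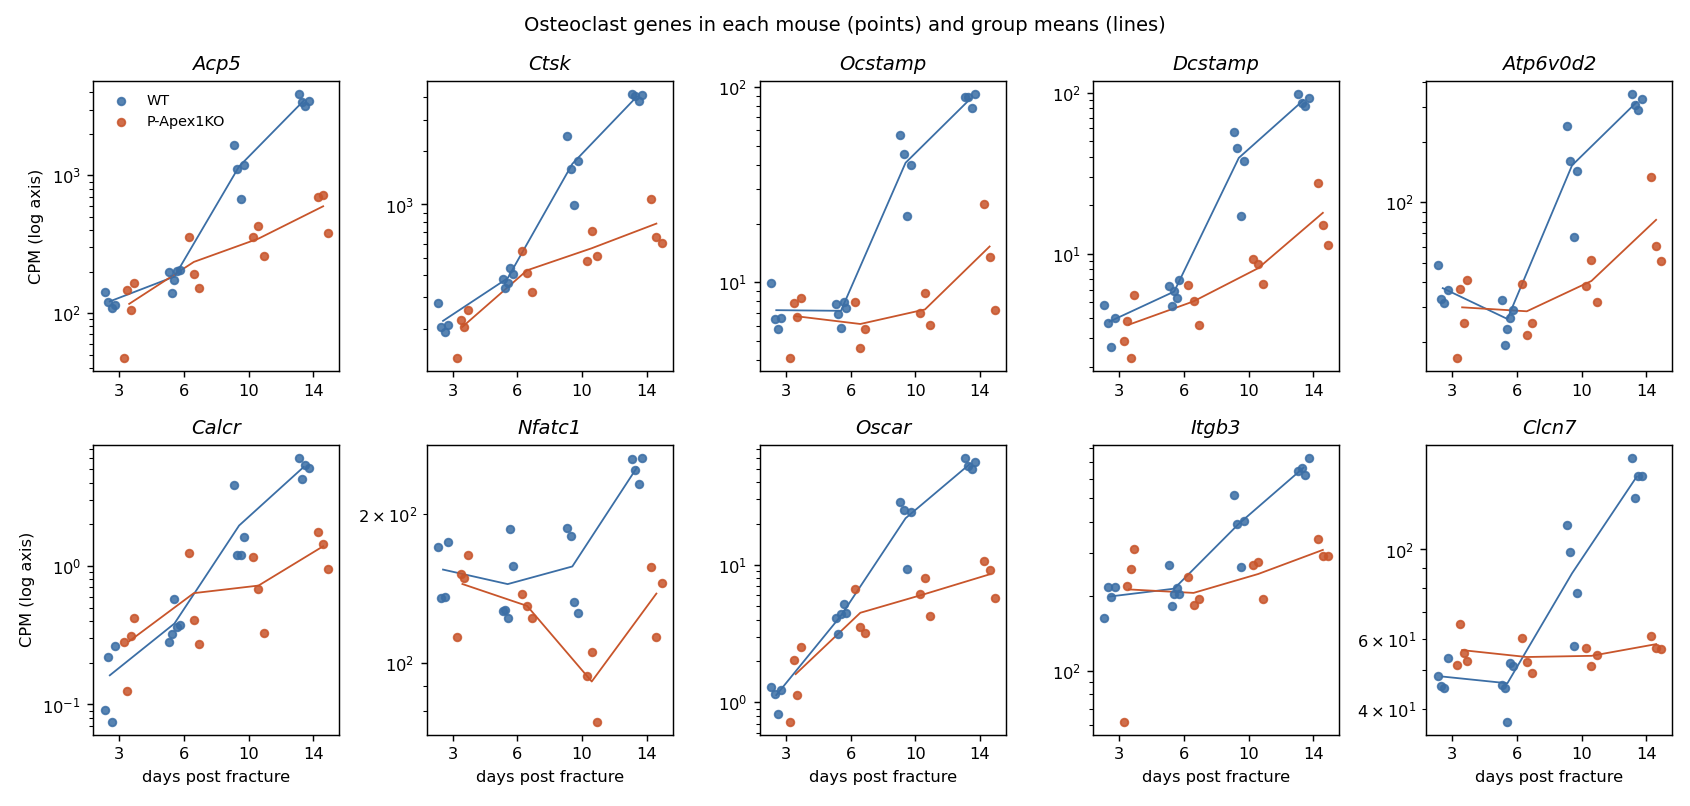
CPM of each of the 10 genes (log axis, a different range in each panel) against days post fracture in WT (blue) and P-Apex1KO mice (orange). Each point is 1 mouse and the lines join group means. At 3- and 6-dpf the genotypes overlap, whereas at 14-dpf every WT mouse lies above every P-Apex1KO mouse in all 10 panels.

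In WT mice the means of the 10 genes were higher at 10-dpf than at 6-dpf and higher again at 14-dpf. Between 3- and 6-dpf, 2 of the 10 genes rose, against 15.4% of all genes called higher and 15.1% called lower in that comparison. *Oscar* (log2 fold change 1.87, SE 0.33, adjusted p = 0.000577) encodes a collagen-binding receptor that costimulates osteoclast formation, and *Ctsk* (0.76, SE 0.18, adjusted p = 0.00478) encodes cathepsin K, the protease that cuts bone collagen. In P-Apex1KO mice both genes rose too, *Oscar* by 1.48 and *Ctsk* by 1.06 on the log2 scale, against 7.1% of all genes called higher and 6.91% called lower. No gene was called in the difference between genotypes in this step (0 of 10, all genes 0.987% called lower), with 0 of 10 at an unadjusted p under 0.05 and 0 of 10 in DESeq2.

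From 6- to 10-dpf every WT mouse at the later day lay above every WT mouse at the earlier day for 8 of the 10 genes, against 12.7% of all genes. The exceptions were *Nfatc1* and *Itgb3*, whose ranges at the 2 days overlapped. In P-Apex1KO mice this held for *Dcstamp* alone, 1 of the 10 genes, against 15.8% of all genes. The ratio of the 10-dpf to the 6-dpf mean was 6.3 for *Acp5* in WT and 1.48 in P-Apex1KO, and 6.76 and 1.61 for *Dcstamp*. These ratios describe levels and carry no test, because the sample names change form between the days.

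From 10- to 14-dpf, 9 of the 10 genes rose in WT, against 6.19% of all genes, and for 10 of 10 every mouse at 14-dpf lay above every mouse at 10-dpf, against 11.7% of all genes. *Acp5* rose the most, by 1.67 on the log2 scale (SE 0.26, adjusted p = 0.00174), and *Nfatc1* the least among those called, by 0.73 (SE 0.13, adjusted p = 0.00342). *Atp6v0d2* was not called, with a log2 fold change of 1.20 (SE 0.38, adjusted p = 0.0699). *Ocstamp* was called close to the threshold (1.19, SE 0.34, adjusted p = 0.0495), and its call was lost in 11 of the 14 fits that left out 1 mouse. In P-Apex1KO mice 0 of the 10 genes were called between the same days, against 0.0304% of all genes called higher, with 1 of 10 at an unadjusted p under 0.05, and DESeq2 called 0. The log2 fold change in P-Apex1KO lay above 0 for 9 of the 10, with a median of 0.48. It ran from −0.15 for *Clcn7* to 0.86 for *Ocstamp*. With so few genes of any kind called higher, the missing calls do not show that the 10 genes stayed level. Every P-Apex1KO mouse at 14-dpf lay above every one at 10-dpf for 3 of 10, *Dcstamp*, *Nfatc1* and *Itgb3*, against 8.5% of all genes.

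The whole course from 3- to 14-dpf again spans the change in sample names, and possibly a change in the tissue taken. Over it the mean of *Oscar* was 48.3 times as high at the end as at the start in WT and 5.31 times in P-Apex1KO. *Calcr*, the receptor through which calcitonin halts osteoclasts, had ratios of 31.9 and 4.85. The ratios were 28.6 and 5.1 for *Acp5*, and 18.3 and 3.81 for *Ctsk*. At the low end, *Nfatc1* had ratios of 1.61 and 0.956.

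The comparison of genotypes within each day asks how loss of *Apex1* in the mesenchyme altered the healing callus. Where genotypes are compared within a day, a gene that fell or rose was lower or higher in P-Apex1KO than in WT. At 3-dpf the osteoclast genes did not separate the genotypes. *Acp5*, the tartrate-resistant acid phosphatase used to stain osteoclasts, had 142, 121, 108 and 115 CPM in WT and 47.2, 148, 105 and 166 CPM in the libraries labelled P-Apex1KO. The lowest and the highest value of the day both belonged to P-Apex1KO. Summed over the 10 genes the first P-Apex1KO replicate was lowest of all mice at 435 CPM, against 720 to 870 CPM in WT, and this mouse also held the most skeletal muscle and the fewest neutrophil transcripts of the day (921 CPM summed over 9 neutrophil markers). The part of these in its osteoclast genes was not tested. None of the 9 genes that passed the filter on low counts was called, the rest being *Calcr*, which was at most 0.424 CPM. Across all genes 0% were called lower and 0% higher. Of the 10 genes 0 had an unadjusted p under 0.05, DESeq2 called 0, and log2 fold changes ran from −0.41 for *Atp6v0d2* to 0.38 for *Oscar*. Without the fourth P-Apex1KO replicate, whose *Apex1* was above all WT mice, and without each other mouse in turn, 0 were called.

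At 6-dpf, 0 of the 10 genes were called, against 5.61% of all genes called lower and 5.31% called higher. *Acp5* had 198, 140, 174, 201 and 207 CPM in WT and 359, 193 and 153 CPM in P-Apex1KO, whose first replicate was above all other mice while the other two lay within the WT range. The log2 fold change was 0.44 (SE 0.19, adjusted p = 0.161), and it was the 1 gene of the 10 with an unadjusted p under 0.05. DESeq2 called 0. The fold changes of the others ran from −0.17 for *Ocstamp* to 0.81 for *Calcr*, with a median over the 10 genes of 0.18 beside 0.01 over all genes tested.

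By 10-dpf the 10 genes were lower in P-Apex1KO than in WT, with a median log2 fold change of −1.57 beside −0.00 over all genes. The test called 5 of them lower and 0 higher, against 3.44% and 3.01% of all genes. For 9 of 10, every P-Apex1KO mouse lay below every WT mouse in CPM, against 10.5% of all genes. An unadjusted p under 0.05 was reached by 10 of 10, and DESeq2 called 9.

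*Nfatc1* (ENSMUSG00000033016, chr18:80649266-80756295, minus strand), the transcription factor that commits a precursor to the osteoclast fate, had 187, 180, 133 and 126 CPM in the 4 WT mice at 10-dpf and 94.1, 105 and 76.2 CPM in the 3 P-Apex1KO mice. The groups did not overlap, and the gene fell by a log2 fold change of −0.68 (SE 0.14, adjusted p = 0.0291). Its mean in P-Apex1KO was 58.5% of that in WT.

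Cell fusion is carried by *Dcstamp* and *Ocstamp*, which encode membrane proteins needed for precursors to merge, and *Atp6v0d2*, a subunit of the proton pump that also takes part in fusion. *Dcstamp* (ENSMUSG00000022303, chr15:39609214-39624334, plus strand) had 57.2, 45.4, 17.1 and 37.9 CPM in WT and 9.24, 8.7 and 6.51 CPM in P-Apex1KO, a log2 fold change of −2.08 (SE 0.32, adjusted p = 0.0223). *Ocstamp* (ENSMUSG00000027670, chr2:165235680-165242336, minus strand) had 56.5, 45.4, 21.8 and 40.1 CPM and 6.97, 8.78 and 6.04 CPM, and with −2.35 (SE 0.30, adjusted p = 0.0144) its difference was the largest of the 10 genes on this day. In both genes the third WT replicate was the lowest WT mouse and still lay above the highest P-Apex1KO mouse. *Atp6v0d2* (ENSMUSG00000028238, chr4:19876838-19922614, minus strand) had 240, 161, 67.4 and 144 CPM in WT and 38.2, 51.6 and 31.7 CPM in P-Apex1KO. Its groups did not overlap, but at −1.73 (SE 0.39, adjusted p = 0.0548) it was not called.

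The receptors were *Oscar*, *Itgb3*, the beta3 chain of the integrin that anchors the cell to matrix, and *Calcr*. *Oscar* (ENSMUSG00000054594, chr7:3612812-3620861, minus strand) had 28.8, 25, 9.34 and 24.3 CPM in WT and 6.16, 8.02 and 4.26 CPM in P-Apex1KO, with a log2 fold change of −1.70 (SE 0.41, adjusted p = 0.061). *Itgb3* (ENSMUSG00000020689, chr11:104498826-104561302, plus strand) had 518, 392, 264 and 404 CPM and 269, 275 and 196 CPM, and was the 1 gene of the 10 whose groups overlapped, since the third WT replicate lay below 2 P-Apex1KO mice (−0.59, SE 0.20, adjusted p = 0.116). *Calcr* (ENSMUSG00000023964, chr6:3685680-3764714, minus strand) had 3.83, 1.19, 1.2 and 1.61 CPM and 1.16, 0.676 and 0.328 CPM, and its first WT replicate stood far above the others (−1.28, SE 0.46, adjusted p = 0.136). None of the 3 receptors was called on this day. *Oscar* overlaps *Ndufa3* on the other strand and the *Calcr* span holds 2 microRNA genes on its own strand, and counting by strand was stated for these reads.

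Of the genes for resorption, *Acp5* and *Ctsk* fell while *Clcn7* missed the threshold. *Acp5* (ENSMUSG00000001348, chr9:22038023-22049355, minus strand; an antisense lncRNA overlaps it) had 1655, 1113, 674 and 1194 CPM in WT and 355, 426 and 260 CPM in P-Apex1KO, a log2 fold change of −1.63 (SE 0.30, adjusted p = 0.0277). *Ctsk* (ENSMUSG00000028111, chr3:95406178-95416732, plus strand) had 2422, 1588, 995 and 1765 CPM and 484, 706 and 512 CPM, a log2 fold change of −1.50 (SE 0.31, adjusted p = 0.0361). The third WT replicate was again the lowest WT mouse for both, above all P-Apex1KO mice. *Clcn7* (ENSMUSG00000036636, chr17:25352356-25381080, plus strand), the chloride and proton exchanger that works beside the proton pump, had 115, 98.5, 57.4 and 78 CPM and 57, 51.4 and 54.7 CPM. The third WT replicate exceeded the highest P-Apex1KO mouse by little, and the log2 fold change was −0.56 (SE 0.15, adjusted p = 0.0657).

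The third WT replicate, a male, had a sum over the 10 genes of 2239 CPM, the other WT mice 3649 to 5284 CPM. On that day it also had the highest sum over 15 macrophage markers in WT (1835 CPM) and the highest over 8 cartilage markers (49595 CPM), and the part of these in its osteoclast genes was not tested. With this mouse left out, 9 of 10 genes were called at 10-dpf. The count fell to 0 without the first P-Apex1KO replicate, the only female of that group, to 1 without the first or second WT replicate or the third P-Apex1KO replicate, and to 3 without the fourth WT replicate. It rose to 7 without the second P-Apex1KO replicate.

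At 14-dpf all 10 genes were lower in P-Apex1KO than in WT, with a median log2 fold change of −2.24 beside 0.04 over all genes. The test called 10 of 10 lower and 0 higher, against 7.04% and 4.28% of all genes, and DESeq2 called 10. Every P-Apex1KO mouse lay below every WT mouse in CPM for 10 of 10, against 23.5% of all genes. With no sex term, which sets all 4 WT mice against the 3 P-Apex1KO females, 10 of 10 were still called, with log2 fold changes from −2.63 for *Oscar* to −0.80 for *Nfatc1*.

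Expression of *Nfatc1* at 14-dpf was 258, 245, 229 and 259 CPM in WT and 156, 113 and 145 CPM in P-Apex1KO, with means of 248 ± 14.1 CPM (SD, n = 4) and 138 ± 22.5 CPM (SD, n = 3). It was 1.84-fold lower (log2 fold change −0.88, SE 0.16, adjusted p = 0.0143), the smallest difference of the 10 genes.

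The fusion genes were 4 to 6 times lower. *Dcstamp* had 97.8, 86.8, 82.4 and 92.1 CPM in WT and 27.6, 15 and 11.3 CPM in P-Apex1KO, 5.33-fold lower (log2 fold change −2.41, SE 0.37, adjusted p = 0.00955). *Ocstamp* had 89.1, 88.9, 77.9 and 91.9 CPM and 25.1, 13.5 and 7.18 CPM, 5.73-fold lower (−2.52, SE 0.48, adjusted p = 0.0202). *Atp6v0d2* had 347, 306, 288 and 327 CPM and 134, 60.6 and 50.8 CPM, 4.18-fold lower (−2.06, SE 0.43, adjusted p = 0.0274). In these 3 genes the WT mice lay close together while the first P-Apex1KO replicate was well above the other two. Without the second P-Apex1KO replicate, 8 of the 10 genes were called, *Ocstamp* and *Atp6v0d2* being lost. The call of *Atp6v0d2* was lost in 4 of the 7 fits that left out 1 mouse.

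Among the receptors *Oscar* showed the largest difference of all 10 genes. It had 60.1, 52.1, 50.1 and 55.8 CPM in WT and 10.7, 9.18 and 5.75 CPM in P-Apex1KO, 6.9-fold lower (log2 fold change −2.79, SE 0.25, adjusted p = 0.00111). *Calcr*, with 6.03, 4.22, 5.39 and 5.11 CPM against 1.77, 1.44 and 0.951 CPM, was 4.23-fold lower (−2.08, SE 0.32, adjusted p = 0.00704). *Itgb3* was 2.06-fold lower, with 648, 663, 624 and 731 CPM against 341, 293 and 293 CPM (−1.04, SE 0.13, adjusted p = 0.00353). For all 3 receptors the gap between the lowest WT and the highest P-Apex1KO mouse was wider than the range within either group.

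For the resorption genes, *Acp5* had 3877, 3380, 3195 and 3481 CPM in WT and 691, 718 and 378 CPM in P-Apex1KO. Its means were 3483 ± 288 CPM (SD, n = 4) and 595 ± 189 CPM (SD, n = 3), 6.4-fold lower by the test (log2 fold change −2.68, SE 0.29, adjusted p = 0.0022). *Ctsk* had 4170, 4076, 3832 and 4126 CPM and 1076, 660 and 606 CPM, 5.26-fold lower (−2.40, SE 0.26, adjusted p = 0.00202). The level of *Clcn7* was 169, 134, 152 and 152 CPM in WT and 61, 56.8 and 56.6 CPM in P-Apex1KO, 2.86-fold lower (−1.51, SE 0.11, adjusted p = 0.000586), and this gene had the smallest adjusted p of the 10. At the level of single mice its P-Apex1KO values at 14-dpf (56.6 to 61 CPM) overlapped those at 3-dpf (51.5 to 65.2 CPM).

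Set side by side, the means of P-Apex1KO at 14-dpf were a smaller share of WT for some genes than for others. The mean was 15.7% of WT for *Oscar*, 17.1% for *Acp5*, 17.5% for *Ocstamp*, 19.3% for *Ctsk* and 20.1% for *Dcstamp*. It was 25.8% for *Atp6v0d2*, 26.7% for *Calcr*, 38.3% for *Clcn7*, 46.3% for *Itgb3* and 55.7% for *Nfatc1*. No test compared these shares between genes. In WT the ratio of the 14-dpf to the 3-dpf mean was 3.34 for *Itgb3*, 3.14 for *Clcn7* and 1.61 for *Nfatc1*. For the other genes it ran from 8.51 for *Atp6v0d2* to 48.3 for *Oscar*. All reads come from bulk callus, and the part of cells other than osteoclasts in these levels was not tested.

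Whether the difference between genotypes itself changed from one day to the next was tested in models of 2 time points. From 6- to 10-dpf it moved downwards for 7 of the 10 genes, against 1.1% of all genes, with 10 of 10 at an unadjusted p under 0.05 and 8 called by DESeq2. The change was −2.27 (SE 0.34, adjusted p = 0.00453) on the log2 scale for *Ocstamp*, −2.10 (SE 0.33, adjusted p = 0.00512) for *Dcstamp* and −2.08 (SE 0.35, adjusted p = 0.00859) for *Acp5*. It was −2.02 (SE 0.40, adjusted p = 0.021) for *Atp6v0d2*, −1.88 (SE 0.44, adjusted p = 0.0375) for *Oscar*, −1.74 (SE 0.33, adjusted p = 0.0121) for *Ctsk* and −0.94 (SE 0.22, adjusted p = 0.04) for *Clcn7*. Not called were *Calcr* (−2.15, SE 0.63, adjusted p = 0.0903), *Nfatc1* (−0.67, SE 0.23, adjusted p = 0.149) and *Itgb3* (−0.67, SE 0.23, adjusted p = 0.149). Both genotypes are present on each side of the change in sample names, so a shift common to both cancels here. The count was 4 without the third P-Apex1KO replicate of 6-dpf, without that of 10-dpf, or without the fourth WT replicate of 10-dpf. The call of *Oscar* was lost in 12 and that of *Clcn7* in 13 of the 15 fits that left out 1 mouse. Each was also lost in 2 of 6 alternative fits.

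From 10- to 14-dpf the difference was called as changed for 1 of the 10 genes, *Clcn7* (−1.06, SE 0.21, adjusted p = 0.047), against 0.396% of all genes. An unadjusted p under 0.05 was reached by 5 of 10, and DESeq2 called 1. For *Acp5* the change was −1.11 (SE 0.43, adjusted p = 0.291) and for *Oscar* −1.19 (SE 0.52, adjusted p = 0.361). The call of *Clcn7* was lost without the sex term, with library size alone, and in 11 of the 14 fits that left out 1 mouse.

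At 14-dpf the P-Apex1KO mice had not passed the level of WT mice at 10-dpf in any of the 10 group means. The mean was 37.2% of the WT mean at 10-dpf for *Ocstamp*, 39% for *Oscar*, 51.4% for *Acp5* and 88.2% for *Nfatc1*. Single mice overlapped for all genes, since every P-Apex1KO mouse at 14-dpf lay below every WT mouse at 10-dpf for 0 of 10, against 18.3% of all genes. For 8 of the 10 (all but *Calcr* and *Nfatc1*) the overlap came from the third WT replicate of 10-dpf alone, a count added after seeing the data. Without this mouse, 22.2% of all genes had every P-Apex1KO mouse at 14-dpf below the remaining WT mice. The mouse was singled out by its low sum over the 10 genes themselves. The count therefore describes the overlap, and the share over all genes is not a like comparison.

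Genes of the same pathways were taken from lists fixed with earlier results of these data known. The lists have their counts of calls beside the percentages of all genes given above for that day, and the median over all genes was 0.01, −0.00 and 0.04 at 6-, 10- and 14-dpf. *Tnfsf11*, which encodes RANKL, fell at 10-dpf from 29.6 ± 3.35 CPM (SD, n = 4) to 14 ± 3.72 CPM (SD, n = 3), with a log2 fold change of −1.08 (SE 0.18, adjusted p = 0.0205). At 14-dpf it was 42.2 ± 12.8 CPM (SD, n = 4) and 20.8 ± 5.01 CPM (SD, n = 3), with −0.20 (SE 0.24, adjusted p = 0.624), a fit that rests on the WT female. *Csf1*, the survival factor of the precursors, fell on both days, with log2 fold changes of −1.11 (SE 0.12, adjusted p = 0.00646) and −0.74 (SE 0.16, adjusted p = 0.0268). *Tnfrsf11b*, which encodes the RANKL decoy osteoprotegerin, had log2 fold changes of 0.68 (SE 0.17, adjusted p = 0.0528) and 0.56 (SE 0.30, adjusted p = 0.266). At 6-dpf *Csf1* was higher in P-Apex1KO (0.34, SE 0.10, adjusted p = 0.0495). Of the 4 genes of this list 0 were called lower and 1 higher at 6-dpf, 2 lower and 0 higher at 10-dpf, and 1 lower and 0 higher at 14-dpf, or 2 lower at 14-dpf without the sex term.

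Of 17 signalling genes upstream of or beside *Nfatc1*, 0 were called lower and 9 higher at 6-dpf, 2 lower and 2 higher at 10-dpf, and 5 lower and 1 higher at 14-dpf. Their median log2 fold change was 0.50, 0.12 and −0.23, the last becoming 0.05 with library size alone. At 10-dpf *Prdm1* (−0.98, SE 0.20, adjusted p = 0.0329), whose product silences repressors of osteoclast formation, and the kinase gene *Src* (−0.54, SE 0.11, adjusted p = 0.0285) fell, whereas the adaptor *Fcer1g* (0.65, SE 0.11, adjusted p = 0.0173) and the receptor *Trem2* (0.73, SE 0.14, adjusted p = 0.0282) rose. At 14-dpf *Tnfrsf11a*, which encodes RANK, had a WT mean of 122 ± 10 CPM (SD, n = 4) and a P-Apex1KO mean of 42.4 ± 14.1 CPM (SD, n = 3), and fell with a log2 fold change of −1.64 (SE 0.27, adjusted p = 0.0112). *Src* (−1.44, SE 0.10, adjusted p = 0.000592) and *Spi1*, which encodes PU.1 (−0.67, SE 0.13, adjusted p = 0.0178), fell as well and *Fcer1g* rose (0.56, SE 0.13, adjusted p = 0.0322). Among repressors of osteoclast formation, *Irf8* (0.80, SE 0.16, adjusted p = 0.0329) and *Bcl6* (0.55, SE 0.12, adjusted p = 0.0383) rose at 10-dpf.

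For the 18 genes of acid secretion and matrix digestion, at 6-dpf 0 were called lower and 2 higher, at 10-dpf 7 lower and 0 higher, and at 14-dpf 15 lower and 1 higher, with median log2 fold changes of 0.11, −0.45 and −1.18. *Mmp9*, a gelatinase abundant in osteoclasts, had a WT mean of 2432 ± 731 CPM (SD, n = 4) and a P-Apex1KO mean of 536 ± 188 CPM (SD, n = 3) at 10-dpf, with a log2 fold change of −2.05 (SE 0.31, adjusted p = 0.0173). At 14-dpf it was 4919 ± 279 CPM (SD, n = 4) and 831 ± 301 CPM (SD, n = 3), with −2.60 (SE 0.31, adjusted p = 0.00308). *Snx10*, which encodes a sorting protein, fell at 10-dpf from 144 ± 42 CPM (SD, n = 4) to 67.7 ± 6.15 CPM (SD, n = 3), with an adjusted p of 0.0468. *Mmp14*, a membrane collagenase, and *Atp6v0b*, a proton pump subunit, fell too, with log2 fold changes of −0.71 and −0.53. At 14-dpf the pump subunit *Atp6v0c* (−1.60, SE 0.40, adjusted p = 0.0494) and *Ostm1*, the partner of CLC-7 (−0.61, SE 0.12, adjusted p = 0.0186), fell. The 1 gene that rose was *Car2*, the carbonic anhydrase that supplies protons (0.83, SE 0.14, adjusted p = 0.0112). Erythroid cells also express it, and 4 of 5 tested erythroid markers were higher on that day. The part of erythroid cells in its rise was not tested.

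Another 12 genes typical of osteoclasts gave 0 lower and 0 higher calls at 6-dpf, 8 lower and 0 higher at 10-dpf, and 10 lower and 1 higher at 14-dpf, with medians of 0.34, −0.79 and −1.47. *Siglec15*, a lectin of the osteoclast surface, fell at 10-dpf (−1.94, SE 0.35, adjusted p = 0.0244) and at 14-dpf (−2.84, SE 0.29, adjusted p = 0.0016). *Slc9b2*, a sodium and proton exchanger, fell at 10-dpf (−1.93, SE 0.32, adjusted p = 0.0259), and so did *Tm4sf19*, which encodes a membrane protein, at 14-dpf (−2.54, SE 0.24, adjusted p = 0.00124). The smallest called falls were those of *Sema4d* (−0.62) and *Sh3pxd2a* (−0.43) at 10-dpf and of *Sh3pxd2a* (−1.08) at 14-dpf. At 14-dpf *Adam8*, also expressed by neutrophils, rose (1.11, SE 0.20, adjusted p = 0.0132), and the part of neutrophils in this was not tested.

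**Figure D2:**
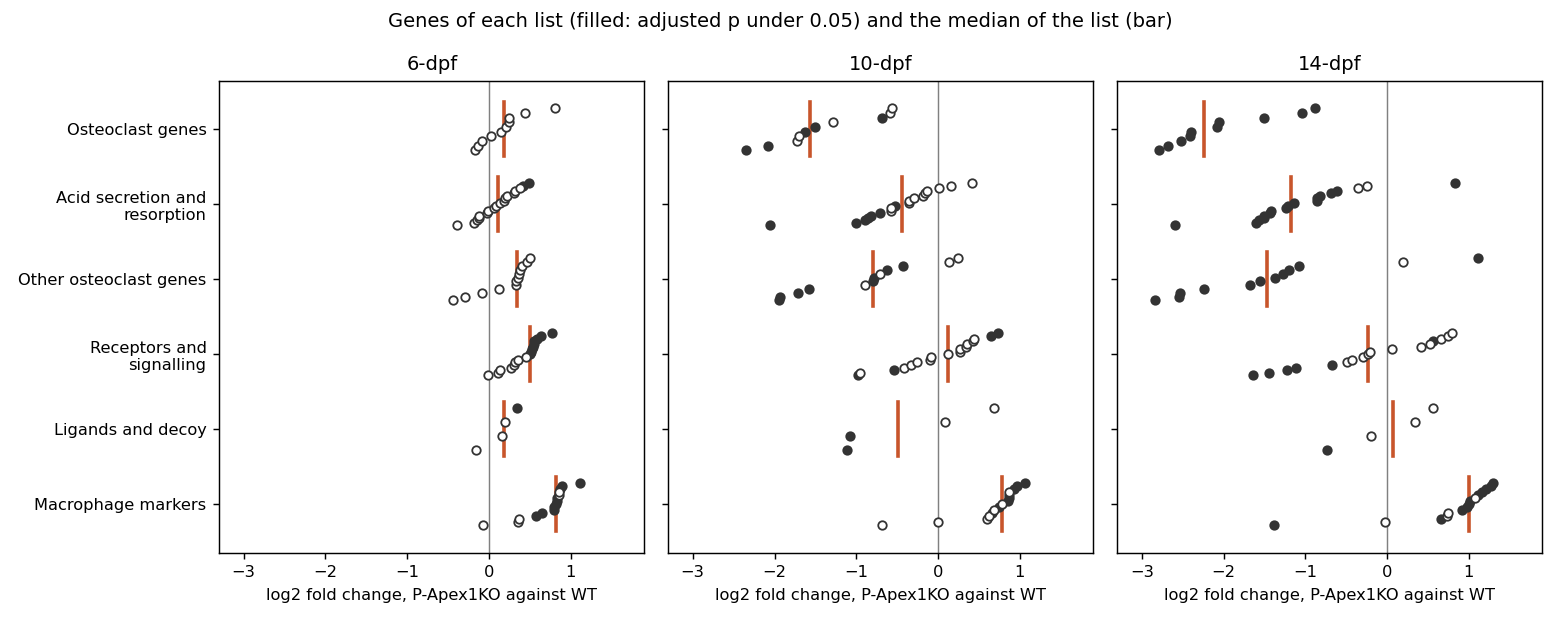
Log2 fold change of P-Apex1KO over WT for the 10 genes, 4 osteoclast-related lists and the macrophage markers at 6-, 10- and 14-dpf, 1 point per gene (log2 fold change on the x axis, list on the y axis), filled where the adjusted p was under 0.05, with the median of each list as a bar. The 10 genes and the acid secretion list shift downwards at 10- and 14-dpf whereas the macrophage markers lie mostly above 0.

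Osteoclasts come from the monocyte and macrophage lineage, whose markers were also counted. Of 15 macrophage markers, 0 were called lower and 10 higher at 6-dpf, 0 and 8 at 10-dpf, and 1 and 10 at 14-dpf, and 0 of 15 were called at 3-dpf. At 10-dpf DESeq2 called 13 higher and the fit without sex 3, and the median of the list was above 0 on each of these 3 days under every scaling tried. Their summed level was 962 to 1835 CPM in WT and 2023 to 2454 CPM in P-Apex1KO at 10-dpf, and 1439 to 1554 CPM and 2283 to 2678 CPM at 14-dpf. At 10-dpf *Fcgr1* (1.06, SE 0.19, adjusted p = 0.0214) and *Ccr2* (0.97, SE 0.20, adjusted p = 0.0412) rose most, and *Mrc1* (0.66) and *Lyz2* (0.75) least among those called. At 14-dpf the complement genes *C1qa* (1.29, SE 0.29, adjusted p = 0.0314) and *C1qb* (1.27, SE 0.22, adjusted p = 0.0109) led and *Itgam* rose by 0.66, while *Cd68*, a lysosomal protein that osteoclasts also hold, fell (−1.38, SE 0.15, adjusted p = 0.00184). The part of macrophage number in the levels of the 10 genes was not tested.

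**Figure D3:**
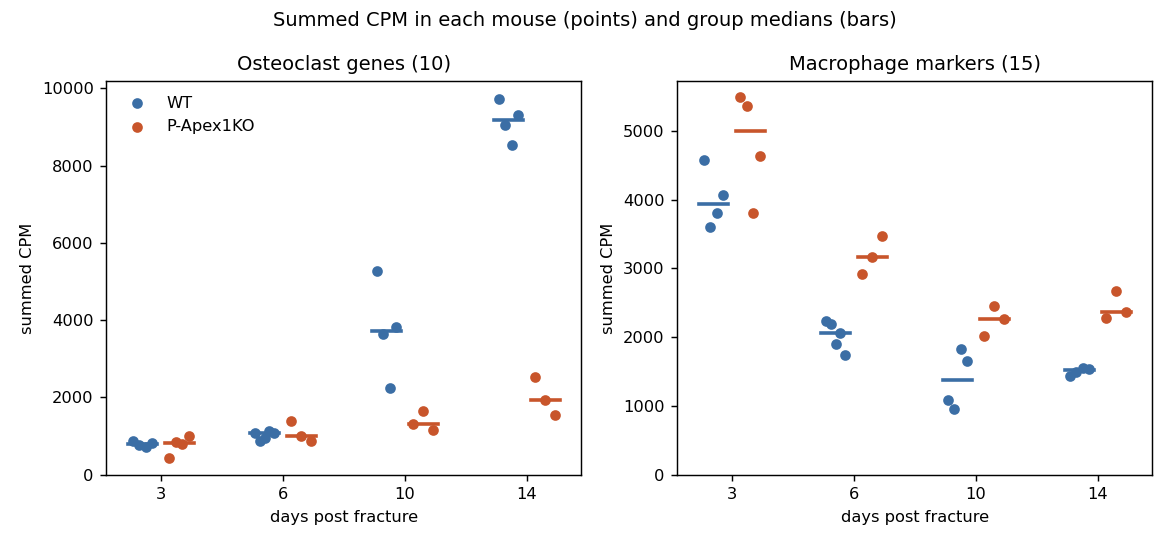
Summed CPM of the 10 osteoclast genes and summed CPM of the 15 macrophage markers in each mouse by days post fracture (x axis) and genotype (WT blue, P-Apex1KO orange), on linear axes from 0, with a point for each mouse and a bar at the group median. The osteoclast sums separate downwards in P-Apex1KO at 10- and 14-dpf (at 14-dpf 1554 to 2525 CPM against 8536 to 9723 CPM in WT), while the macrophage sums lie above those of WT from 6-dpf. The sums are unweighted, so the most abundant genes weigh most in them. In WT at 14-dpf the means were 4051 CPM for *Ctsk* and 3483 CPM for *Acp5*, with *Itgb3* next at 667 CPM.

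Other cell types of the callus differed between genotypes beside the 10 genes. Of 8 osteoblast markers, 6 were called lower at 6-dpf, 5 at 10-dpf and 4 at 14-dpf, with 0 called higher, and their sum at 14-dpf was 70760 to 96700 CPM in WT and 17611 to 19024 CPM in P-Apex1KO. Of 8 cartilage markers, 8 were lower at 6-dpf and 1 at 10-dpf, while at 14-dpf 8 were fitted as higher and 1 without the sex term. The WT female, on which that fit rests, had a cartilage sum of 1548 CPM against 6127 to 8209 CPM in the WT males and 5985 to 9323 CPM in P-Apex1KO. At 14-dpf neutrophil markers were called higher for 7 of 9 and erythroid markers for 4 of 5. Lymphocyte markers were called higher for 3 of 9, 2 of 9 and 1 of 9 at 6-, 10- and 14-dpf, and skeletal muscle markers for 9 of 10 at 6-dpf. Endothelial markers were called lower for 2 of 6 at 10- and at 14-dpf. Without the sex term the counts at 14-dpf were 9 of 9 lymphocyte, 9 of 9 neutrophil, 5 of 5 erythroid and 5 of 10 skeletal muscle markers higher and 5 of 6 endothelial markers lower. At 10-dpf 0 of 9 neutrophil and 0 of 10 muscle markers were called by edgeR, and 9 of 9 and 5 of 10 by DESeq2, all higher. No gene of these lists was at 0 in every mouse of a group. The part of these differences in the levels of the 10 genes was not tested.

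Mice of the same genotype and day also differed from each other in a way that the 10 genes shared. For each gene the log2 CPM of a mouse was taken as a deviation from its group mean, and deviations were correlated over the 30 mice as a description, with no test, since the genes of a library share its depth and composition. The correlation of a gene with the mean of the other 9 was between 0.85 and 0.93 for *Acp5*, *Ctsk*, *Ocstamp*, *Dcstamp*, *Atp6v0d2* and *Oscar*. It was 0.66 for *Itgb3*, 0.64 for *Nfatc1*, 0.63 for *Clcn7* and 0.47 for *Calcr*, the gene with the fewest reads. The closest pairs, at 0.93, were *Oscar* with *Acp5* and *Atp6v0d2* with *Ocstamp* and with *Ctsk*, and the least alike were *Nfatc1* and *Calcr* at 0.28.

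Of 13784 other protein-coding genes that averaged 1 CPM or more, the 10 whose deviations were most like the mean of the 10 osteoclast genes were *Slc9b2* (r = 0.91), *Arsb*, *Mmp9*, *Rufy4* and *Ckb* (each 0.89), *Adcy3*, *Dock5* and *Tm4sf19* (each 0.88), *Ermp1* (0.84) and *Nyap2* (0.83). *Slc9b2*, *Mmp9*, *Ckb* and *Tm4sf19* were also on the lists above. With library size in place of TMM, 9 of these were again among the 10 most alike. Within the 16 mice of 3- and 6-dpf alone 2 of them were among the 10 most alike, and within the 14 mice of 10- and 14-dpf 4 were, so the order depended on which days were included.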

How the data were processed

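Total RNA of the fracture callus of 30 mice, depleted of ribosomal and globin RNA, was sequenced as stranded paired-end libraries. The authors demultiplexed with bcl2fastq 2.20, aligned with STAR 2.7.0d to mm39 (GRCm39) and counted reads per gene with featureCounts, and deposited raw whole-number counts for 55416 Ensembl IDs. The study's own test was DESeq2 1.32.0. Symbols and positions came from GENCODE M39, in which 54749 of the IDs were found and 667 were not, and 135 of 136 listed symbols matched an ID (*Ahsp* did not).

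Library totals were 23476327 to 43111491 counts at 3- and 6-dpf and 18334389 to 25185562 counts at 10- and 14-dpf. No 2 libraries of a group were alike within sampling noise (smallest chi-square per gene 5.65).

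Genotypes were compared within each day by edgeR 4.0.16 in R 4.3.3 (quasi-likelihood F test, robust, TMM, filter on low counts by filterByExpr, sex as covariate, Benjamini-Hochberg over all genes tested, threshold 0.05). Changes over time and of the genotype difference came from models of 2 neighbouring days. SE is the size of the log2 fold change divided by the square root of F. Correlations used log2 CPM with a prior count of 2. Alternatives were DESeq2 1.42.0, no sex term, other scalings and filters, 1 model of all mice, the replicate number as a block, and each mouse left out in turn. On simulated counts with 200 genes changed 4-fold, the test recovered 84%, 83%, 88.5% and 66.5% of them at 3-, 6-, 10- and 14-dpf. Among the unchanged genes it made 19, 10, 18 and 10 false calls. The simulated counts held no sex effect.

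The 10 genes and all lists were chosen with earlier results of these data known. Beside the 10 genes, *Apex1* and the RANKL, osteoprotegerin and CSF1 genes, those named were, of each osteoclast list and the macrophage markers, the 2 with the largest and the 2 with the smallest log2 fold change among those called at 10- and at 14-dpf, and the 10 genes most alike in deviation. The other marker lists are given by counts, and 1 gene of the repressor list is not reported here, nor is that list's count. The replicate numbers were checked as pairs: deviations of same-numbered mice correlated at −0.25 to 0.39, so the numbers were not taken to pair the mice.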

Additional observations from a re-analysis of the deposited data

Results flagged for a closer look

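*Calcr* in the first WT replicate at 10-dpf had 3.83 CPM, against 1.19 to 1.61 CPM in the other 3 WT mice of that day, a gap of 0.839 of the range of the group and above Dixon's critical value for 4 samples. Over the 50 groups of 4 or 5 mice examined, chance alone is expected to single out 1 in 20, and this was the 1 group singled out.

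The difference between P-Apex1KO and WT itself changed from 6- to 10-dpf by an interaction test (edgeR, Benjamini-Hochberg over all genes) in 7 genes. The change was −2.08 on the log2 scale for *Acp5*, −1.74 for *Ctsk*, −2.27 for *Ocstamp*, −2.10 for *Dcstamp*, −2.02 for *Atp6v0d2*, −1.88 for *Oscar* and −0.94 for *Clcn7*. From 10- to 14-dpf it changed in *Clcn7*, by −1.06. The calls of *Oscar* and *Clcn7* from 6- to 10-dpf and of *Clcn7* from 10- to 14-dpf were lost in most fits that left out 1 mouse.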

How the results depend on the processing

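At 14-dpf all 10 genes stayed lower in every alternative, with 10 called in each except without a filter on low counts, where 7 were called (*Ocstamp*, *Dcstamp* and *Atp6v0d2* lost), and 8 to 10 with 1 mouse left out (the fit without the WT female had no sex term). At 10-dpf the direction held throughout but the count of 5 did not: it was 9 with DESeq2, 3 without a filter on low counts and 8 with all samples in one model, and 0 to 9 with 1 mouse left out. Without the first P-Apex1KO replicate, 42 of all genes were called at 10-dpf, against 1221 with all mice. This replicate was the only P-Apex1KO female at 10-dpf. Without it, and with sex as a covariate, the fitted difference sets the P-Apex1KO males against the WT males. The part of this in the loss of calls was not tested. Depth limits *Calcr*, which failed the filter at 3-dpf.

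The replicate numbers are not pairs by this check, since 5 of 13 WT mice correlated best with the P-Apex1KO mouse of their number. With the replicate block in place of sex, 8 of the 10 genes were called at 10-dpf, 10 at 14-dpf, 4 for the change from 6- to 10-dpf and 0 for that from 10- to 14-dpf. The block turned the sign of *Itgb3* at 3-dpf (−0.11), at 6-dpf (−0.06) and from 3- to 6-dpf in P-Apex1KO (0.12), of *Nfatc1* at 6-dpf (0.06), of *Dcstamp* (0.01) and *Nfatc1* (0.12) in the change of the difference from 3- to 6-dpf, and of *Clcn7* from 10- to 14-dpf in P-Apex1KO (0.09), none of them called.

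Library size alone moved the median of all genes by 0.20 at 6-dpf and 0.31 at 14-dpf. It gave 3 genes called higher at 6-dpf (*Acp5*, *Ctsk* and *Clcn7*), 5 calls in place of 2 from 3- to 6-dpf in WT, 3 of them lower and 2 higher, and 0 in place of 1 for the change from 10- to 14-dpf. With it the sign turned at 6-dpf for *Ocstamp* (0.02), *Dcstamp* (0.11) and *Nfatc1* (0.06), in the change of the difference from 3- to 6-dpf for *Ocstamp* (0.16), *Dcstamp* (0.12), *Calcr* (0.08), *Nfatc1* (0.22) and *Itgb3* (0.12), and from 3- to 6-dpf in WT for *Itgb3* (−0.19). Without sex, 0 genes were called for the change from 10- to 14-dpf, and the sign turned for *Itgb3* at 6-dpf (−0.03), *Ocstamp* in the change from 10- to 14-dpf (0.01) and *Clcn7* from 10- to 14-dpf in P-Apex1KO (0.12). All samples in one model gave 0 for the same change and turned *Itgb3* at 6-dpf (−0.00), *Clcn7* in the change from 3- to 6-dpf (−0.00) and *Clcn7* from 10- to 14-dpf in P-Apex1KO (0.02).

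With each mouse left out, the count was 4 to 8 for the change from 6- to 10-dpf, 0 to 1 for that from 10- to 14-dpf, 1 to 3 from 3- to 6-dpf in P-Apex1KO, 2 to 3 in WT, and 8 to 10 from 10- to 14-dpf in WT. The log2 fold change crossed 0 in uncalled genes only. At 3-dpf it spanned −0.29 to 0.12 for *Acp5*, −0.29 to 0.06 for *Ocstamp* and −0.13 to 0.41 for *Itgb3*. At 6-dpf it spanned −0.05 to 0.34 for *Ctsk*, −0.17 to 0.05 for *Dcstamp*, −0.28 to 0.02 for *Nfatc1*, −0.27 to 0.41 for *Oscar* and −0.04 to 0.09 for *Itgb3*. In the change from 3- to 6-dpf it spanned −0.38 to 0.07 for *Ocstamp*, −0.39 to 0.18 for *Dcstamp*, −0.89 to 0.20 for *Calcr*, −0.12 to 0.06 for *Nfatc1*, −0.41 to 0.20 for *Itgb3* and −0.08 to 0.11 for *Clcn7*. From 3- to 6-dpf the span in WT was −0.15 to 0.15 for *Ocstamp*, −0.01 to 0.15 for *Itgb3* and −0.11 to 0.02 for *Clcn7*, and in P-Apex1KO −0.40 to 0.08 for *Ocstamp*, −0.36 to 0.12 for *Atp6v0d2*, −0.35 to 0.23 for *Itgb3* and −0.16 to 0.03 for *Clcn7*. In the change from 10- to 14-dpf it was −0.86 to 0.08 for *Ocstamp* and −0.99 to 0.01 for *Atp6v0d2*. With all mice 662 of the values kept direction and side of the threshold, 28 newly passed it, 18 lost it and 22 turned sign, and with 1 mouse left out 1204, 12, 75 and 51 did.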

Other observations

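The osteoclast lists also changed over time within a genotype (edgeR, Benjamini-Hochberg over all genes). Between 10- and 14-dpf in WT, 13 of 18 genes for acid secretion and matrix digestion rose (median log2 fold change 0.62), as did 10 of 12 further osteoclast genes (0.95) and 8 of 17 signalling genes (0.47), and none of these fell. In P-Apex1KO 0 of 18, 0 of 12 and 0 of 17 were called between the same days, with medians of 0.02, 0.28 and 0.22. Over all genes 6.19% were called higher in WT and 0.0304% in P-Apex1KO.

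Between 3- and 6-dpf 2 of the 10 osteoclast genes were called higher in each genotype. Over all genes 15.4% were called higher in WT and 7.1% in P-Apex1KO. The log2 fold changes of 4 of the 10 in WT and 5 in P-Apex1KO lay below 0, so these genes had no common direction. Signalling genes were called lower for 16 of 17 in WT (median −0.76) and 7 of 17 in P-Apex1KO (−0.39). Macrophage markers were called lower for 14 of 15 in WT (−0.94) and 9 of 15 in P-Apex1KO (−0.58). Over all genes 15.1% were called lower in WT and 6.91% in P-Apex1KO. The genotypes were not compared with each other in these counts, except that 2 of 17 signalling genes passed the test of the difference in change, both upwards.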
